A study of Homo sapiens with 12 samples.

Results

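The 41 genes described here are nuclear genes for subunits and close partners of respiratory complexes II, III and IV, for cytochrome c and for ATP synthase, which is complex V. The rule that picks them goes by gene symbol and uses no measured value. They comprise 4 genes of complex II, 9 of complex III, the cytochrome c gene CYCS, 11 of complex IV and 16 of ATP synthase, out of 60708 genes in each count table. All 41 had a row in both count tables and passed the filter on low counts in every comparison. The RNA-seq libraries came from HCT116, an established human colorectal carcinoma cell line whose genotype is labelled WT. Oligomycin A (OA) was given to 3 cultures for 24 h, and 3 DMSO-treated cultures were their own controls. Tunicamycin (TN) was given to another 3 cultures for 24 h, with a separate set of 3 DMSO-treated controls. The labels give 5 µg/mL for either stressor, whereas the methods of the study give a higher dose for OA, so the OA dose is uncertain. The labels call the replicates biological. Every culture is of the same line, so the spread between replicates is a spread between cultures of HCT116.

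Complex II (succinate dehydrogenase) passes electrons from succinate to ubiquinone and is built from nuclear genes alone. Complex III passes the electrons on to cytochrome c, and complex IV hands them to oxygen. ATP synthase uses the resulting proton gradient to make ATP: protons cross the membrane through a ring of c subunits, whose rotation drives the catalytic head. OA binds this c ring and stops the proton flow. TN blocks the first step of N-linked glycosylation in the endoplasmic reticulum. Mitochondrial DNA also encodes subunits of complexes III, IV and V.

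Library totals ranged from 9884124 to 24983573 counts. The cells were epithelial by their markers, since EPCAM, KRT8, KRT18 and CDH1 were above 1 CPM (counts scaled to the library total and its normalization factor) in every library, although VIL1 was not. Summed leukocyte markers were at most 0.668 CPM, and DCN, PTPRC, CD3E and LYZ had at most 1 count in any library. Summed fibroblast and endothelial markers ranged from 1.54 to 12.9 CPM, with the highest sums in the OA libraries (4.87 to 12.9 CPM) and COL1A1 at up to 12.4 CPM, and their part in the results was not tested. All 8 stress genes used as a check of the treatments, among them DDIT3, ASNS and HSPA5, were called higher under OA and under TN. The small noncoding RNA RN7SL1 took from 6.02% to 17.9% of a library, with the highest share in OA replicate 2 and the next highest in TN replicate 1. In most libraries the deviation from the group followed the GC content of the transcripts. Correlations across genes ran from -0.722 in DMSO replicate 1 of OA to 0.713 in TN replicate 1. They were weak in DMSO replicate 3 of OA (-0.079) and in OA replicate 3 (0.047). Because of this dependence on GC content, a GC correction was run for the members and for the numbers of genes called. This correction measured each library against the mean of all libraries in its fit, treated and DMSO together. A difference between treated and DMSO libraries that follows GC content was therefore removed as well. How much this changed the corrected values was not tested. Since each value is a share of a bulk library, less RNA of a gene per cell and more of other RNAs cannot be told apart.

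The members as a whole took a smaller share of the counts in the stressed libraries. With DMSO they made up 1.08%, 1.23% and 1.08% of all counts in replicates 1, 2 and 3 of the OA experiment, and 0.788%, 0.759% and 0.790% in OA replicates 1, 2 and 3. The corresponding shares in the TN experiment were 1.21%, 1.01% and 1.03% with DMSO and 0.890%, 0.812% and 0.827% with TN. The groups did not overlap under either stressor. ATP synthase genes alone made up from 0.547% to 0.619% of counts with DMSO and from 0.338% to 0.378% with OA in the OA experiment, and from 0.495% to 0.604% with DMSO and from 0.368% to 0.405% with TN in the other. The share depends on its denominator. Set against the counts of ACTB, the reference gene of the study's qPCR, the ratio of treated to DMSO turned from -0.54 to 0.16 on the log2 scale for OA and from -0.36 to 0.14 for TN.

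After normalization by the trimmed mean of M values (TMM), most members had a negative log2 fold change under OA, and 1 of them fell by the test used, ATP5MC3 of the ATP synthase c ring. Of the 41 members, 34 were below 0 (82.9%, against 51.2% of the 14681 genes tested). Their median was -0.35, beside -0.022 over all tested genes, whose lower and upper quartiles were -0.50 and 0.50. With a correction for transcript GC content 30 members were below 0 (73.2%, against 48.2% of all genes) at a median of -0.24, beside 0.032 over all genes. Scaling to ACTB took the median of all genes to 0.42 and that of the members to 0.13, with 16 members below 0 (39%, against 28.3% of all genes). Without DMSO replicate 2 the median was -0.16. The test was the quasi-likelihood test of edgeR with p-values adjusted over all genes by the Benjamini-Hochberg method, at an adjusted p under 0.05, and it called no other member. The 1 call is 2.44% of the members, not above the 4.48% of all tested genes that were called (2.76% higher and 1.72% lower). Without adjustment, 11 members were lower at p under 0.05 (26.8%, against 10.3% of all genes) and 1 was higher (13% of all genes). In 16 members every OA library lay below every DMSO library (39% of the members, against 15.5% of all genes), and in COX7A2L alone every OA library lay above (16.3% of all genes).

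Libraries of the same replicate number deviated together, so a fit with the replicate number as a block was run as well. It called 11 members under OA (26.8%), a share close to the 26.7% of all genes called in the same fit. Of these, 10 were lower (24.4%, against 15% of all genes), namely SDHA, SDHD, UQCR10, CYCS, COX6C, COX7B, ATP5PB, ATP5MC1, ATP5MC3 and ATP5MF, and COX7A2L was higher (11.7% of all genes). The GC correction, which removed a smooth curve of each library against transcript GC content, called 4 members without the block, all lower (SDHA, UQCR10, ATP5MC1 and ATP5MF). This was 9.76% of the members, where 17.7% of all genes were called in either direction, 1404 of these 2602 as higher. With the correction and the block together it was 10 members (24.4%), where 25.7% of all genes were called in either direction. Of these members 9 were lower (22%) and COX7A2L was higher, whereas the genes called were split about evenly between higher and lower.

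**Figure D1:**
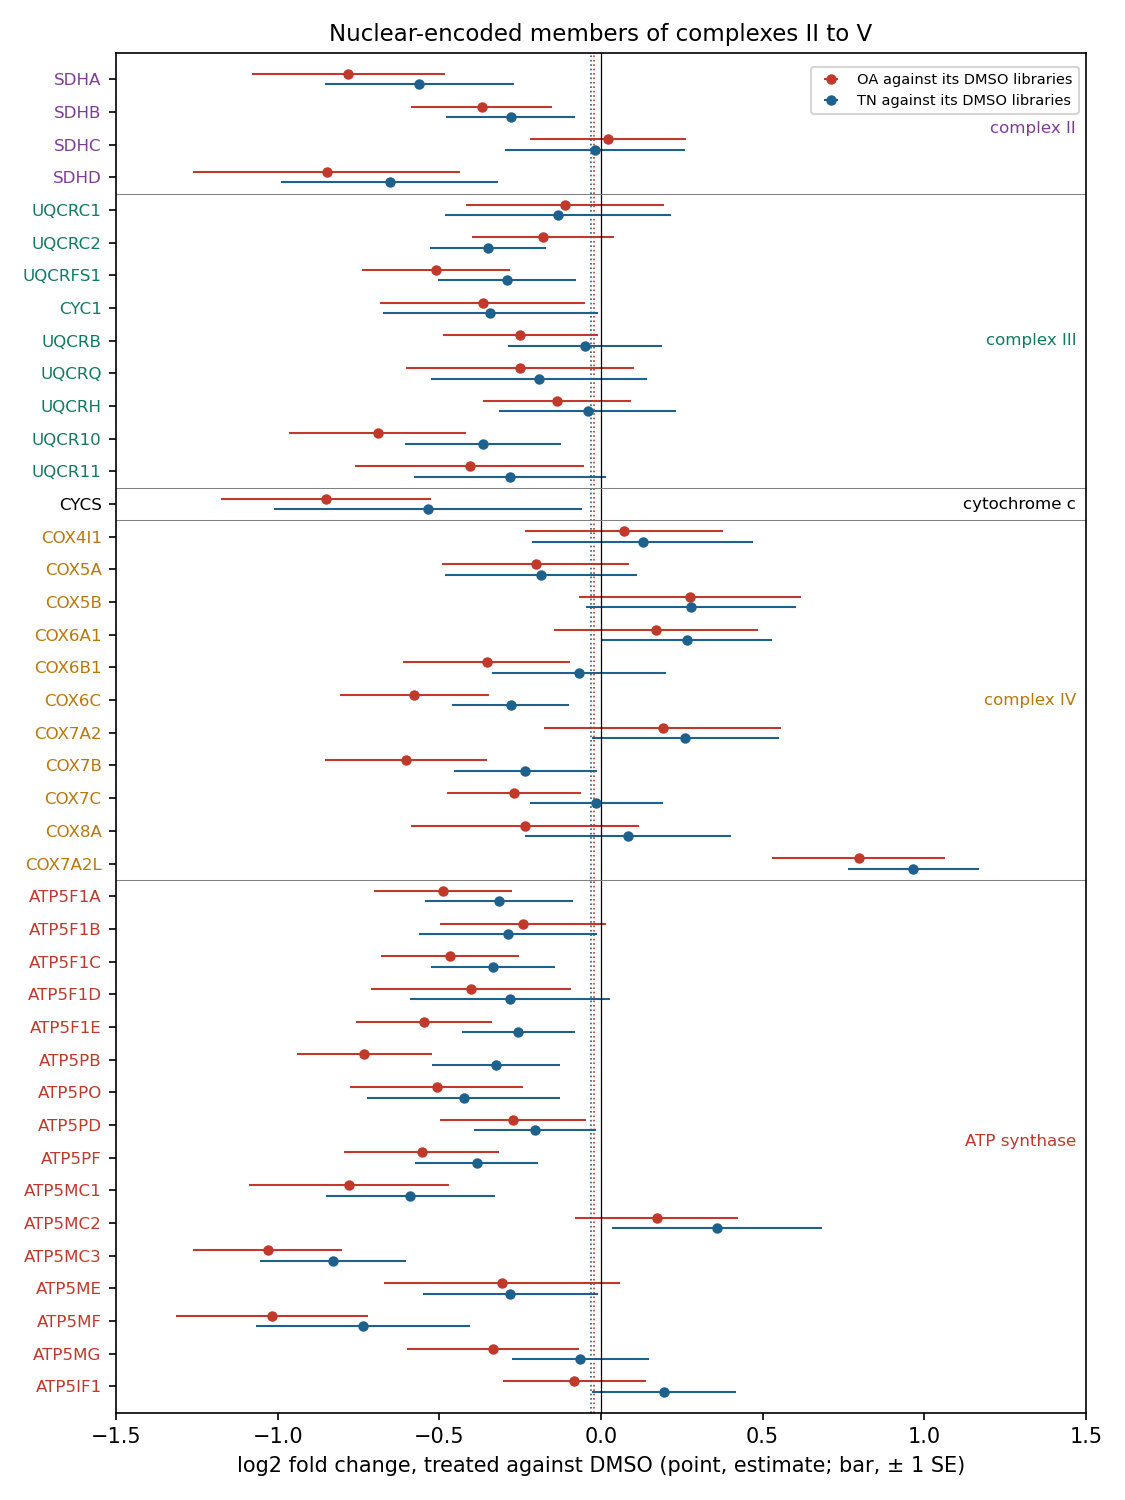
Log2 fold change (x axis) of each of the 41 members (y axis, grouped by complex) under OA and under TN, each against its own 3 DMSO libraries. Points are edgeR estimates, bars are 1 SE on either side, and dotted lines are the medians of all tested genes (-0.022 for OA and -0.031 for TN). Most points lie left of 0, with COX7A2L at 0.80 and 0.97 and ATP5MC3 at -1.03 and -0.83.

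Under TN, 33 of the 41 members were below 0 (80.5%, against 51.9% of the 14432 genes tested), with a median of -0.28 beside -0.031 over all genes. With the GC correction 26 members were below 0 (63.4%, against 47.8% of all genes) at a median of -0.11, beside 0.032 over all genes. Scaling to ACTB took the median of all genes to 0.30 and that of the members to 0.064, with 11 members below 0 (26.8%, against 30.9% of all genes). Without DMSO replicate 1 the median was -0.13, and without TN replicate 2 it was -0.15. The same test called COX7A2L, which was higher, and no other member. This was 2.44% of the members, where 6.99% of all genes were called (3.65% higher and 3.34% lower). Without adjustment, 1 member was lower (12.1% of all genes) and 1 was higher (12.2% of all genes). Every TN library lay below every DMSO library in 9 members (22%, against 16.8% of all genes) and above in COX7A2L only (15.9% of all genes). With the replicate block 5 members were called, namely SDHD, ATP5MC1, ATP5MC3 and ATP5MF as lower and COX7A2L as higher, or 12.2% of the members where 27.1% of all genes were called (11.8% higher and 15.3% lower). The GC correction called 6, all lower (SDHA, SDHD, CYC1, ATP5F1D, ATP5MC1 and ATP5MF). This was 14.6%, where 24.1% of all genes were called in either direction, more of them as higher than as lower. With the correction and the block together it was 15 (36.6%), where 38.3% of all genes were called in either direction. Of these members 13 were lower (31.7%) and 2 were higher, whereas the genes called were split about evenly between higher and lower.

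The complexes differed in how far their medians lay from 0. The median log2 fold change under OA was -0.58 in complex II, -0.25 in complex III, -0.20 in complex IV and -0.48 in ATP synthase, and CYCS was at -0.85. Under TN the medians were -0.42, -0.28, 0.084 and -0.30 in the same order, and CYCS was at -0.53. All 9 complex III genes were below 0 under either stressor, and so were 15 of 16 ATP synthase genes under OA and 14 under TN. Complex IV was mixed, with 6 of 11 genes below 0 under OA and 5 under TN. With the GC correction the medians of complexes II, III and IV and of ATP synthase were -0.44, -0.29, -0.091 and -0.30 under OA and -0.33, -0.15, 0.058 and -0.16 under TN, and 7 of 9 complex III genes were below 0 under either stressor, as were 13 of 16 ATP synthase genes under OA and 11 under TN. Scaling to ACTB left 2 (OA) and 3 (TN) complex III genes and 9 and 5 ATP synthase genes below 0. Set against the mean of the own DMSO group, the complex IV median was 0.37 in OA replicate 2 and 0.63 in TN replicate 1, and it was below 0 in the other stressed libraries, from -0.17 to -0.45. DMSO replicate 2 of OA and DMSO replicate 1 of TN were themselves high, at 0.29 and 0.31. Against the same-numbered control the medians were 0.046 in OA replicate 2 and 0.29 in TN replicate 1, and from -0.32 to -0.0029 in the others. OA replicate 2 and TN replicate 1 are also the libraries with the most RN7SL1, and with the strongest positive GC deviation of their groups (0.526 and 0.713). What part these had in the medians was not tested.

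**Figure D2:**
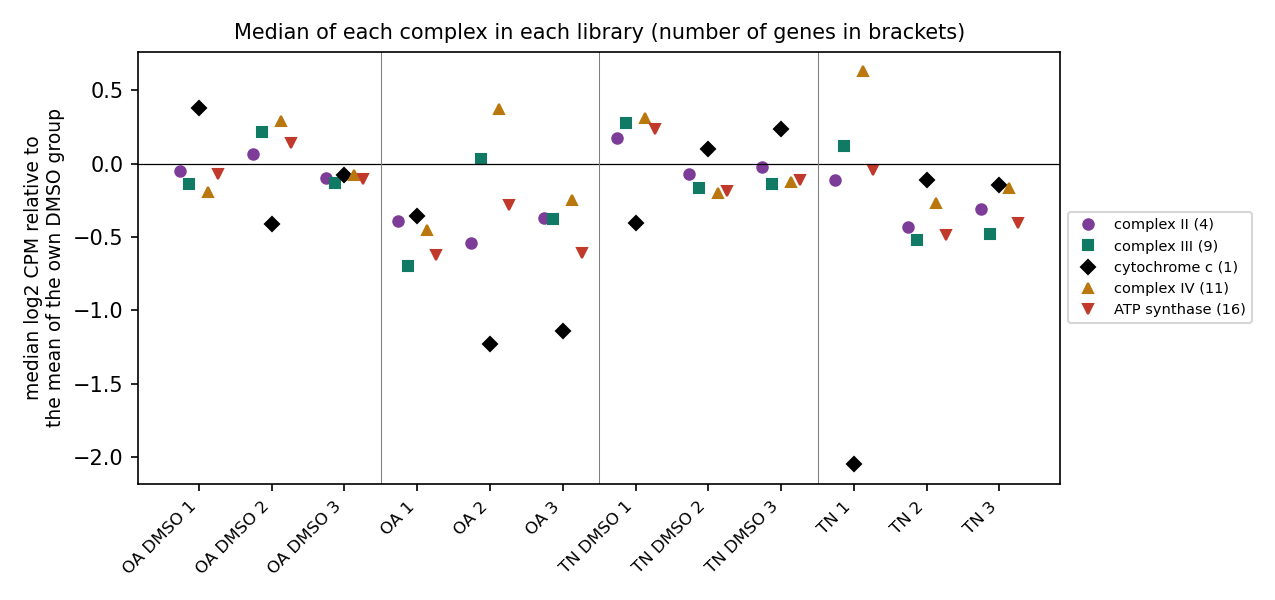
Median log2 CPM of the genes of each complex, relative to their mean over the 3 DMSO libraries of the same stressor (y axis), in each of the 12 libraries (x axis); cytochrome c is the single gene CYCS. ATP synthase lies between -0.28 and -0.63 in the OA libraries and between -0.044 and -0.49 in the TN libraries, while complex IV is above 0 in OA replicate 2 and TN replicate 1.

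Promoter sequences are shown for members on which the results turn and that have a window in the RefSeq table, to set COX7A2L, which was higher, beside genes with negative fold changes and beside ATP5MC2, whose fold changes were above 0. Of the 41 members, 33 had at least 1 window in this table (39 windows in all, GRCh38.p14). Each line gives the 250 bases before a RefSeq transcription start on the coding strand, 5′ to 3′, and capitals mark matches to NRF1 (CGCANGCGC), to an ETS site as bound by GABPA (CCGGAAG) or to YY1 (AAGATGG), on either strand. These factors are known regulators of nuclear genes for respiration.
COX7A2L (chr2:42361218-42361467, minus strand, 1 of 2 windows of the gene, neither with a match): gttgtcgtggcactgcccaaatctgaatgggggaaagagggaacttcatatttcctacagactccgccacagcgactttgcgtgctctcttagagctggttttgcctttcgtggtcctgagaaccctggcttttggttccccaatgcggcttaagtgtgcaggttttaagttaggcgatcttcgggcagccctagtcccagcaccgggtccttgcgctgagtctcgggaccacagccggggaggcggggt
ATP5MC1 (chr17:48892537-48892786, plus strand, no match): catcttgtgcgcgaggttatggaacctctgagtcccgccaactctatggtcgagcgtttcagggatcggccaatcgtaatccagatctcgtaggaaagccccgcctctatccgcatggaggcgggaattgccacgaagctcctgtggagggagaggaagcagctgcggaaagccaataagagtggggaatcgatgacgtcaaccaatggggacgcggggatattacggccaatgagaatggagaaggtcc
ATP5MC2 (chr12:53676084-53676333, minus strand, 1 of 3 windows of the gene and the only one of them with a match in these bases, 1 to NRF1): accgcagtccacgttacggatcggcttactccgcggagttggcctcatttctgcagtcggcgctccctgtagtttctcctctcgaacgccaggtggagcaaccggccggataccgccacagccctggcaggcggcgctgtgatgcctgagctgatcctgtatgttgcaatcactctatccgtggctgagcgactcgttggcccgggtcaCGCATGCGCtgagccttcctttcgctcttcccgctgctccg
SDHD (chr11:112086623-112086872, plus strand, 2 overlapping matches to NRF1 and 1 to ETS): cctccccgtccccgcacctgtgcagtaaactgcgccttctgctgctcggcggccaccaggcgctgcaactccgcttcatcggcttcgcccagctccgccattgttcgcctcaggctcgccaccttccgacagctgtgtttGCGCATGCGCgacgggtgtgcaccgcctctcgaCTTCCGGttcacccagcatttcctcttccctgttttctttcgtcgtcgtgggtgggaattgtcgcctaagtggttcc
UQCR10 (chr22:29767119-29767368, plus strand, 1 match to NRF1 that runs past the start, so that its end is not printed): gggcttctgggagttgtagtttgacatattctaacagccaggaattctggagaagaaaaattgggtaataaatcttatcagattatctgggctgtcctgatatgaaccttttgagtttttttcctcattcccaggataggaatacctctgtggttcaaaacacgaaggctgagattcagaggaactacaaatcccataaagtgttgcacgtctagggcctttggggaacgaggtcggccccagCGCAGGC
The NRF1 letters stood in 30.77% of the member windows and in 7.47% of all 35116 windows, counted over windows of 300 bases that also hold the 50 bases after the start. For the ETS letters the shares were 41.03% and 10.26%, and for the YY1 letters 25.64% and 5.84%. Neither the ATF4-CEBP letters TGATGNAA nor the letters TGACGTGG of the element bound by XBP1 and ATF6 occurred in a member window, and they stood in 3.62% and 0.73% of all windows. A match is a description of letters and does not show binding.

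The ATP synthase c ring is the part that OA binds, and its 3 genes had fold changes of different sign. ATP5MC1, ATP5MC2 and ATP5MC3 encode precursors that are cut to the same mature c subunit and differ in their import sequences. ATP5MC3 (chromosome 2, 175176258 to 175181710, hg38) had 362, 424 and 344 CPM in the DMSO libraries of OA (replicates 1, 2 and 3, here and below) and 153, 192 and 209 CPM in the OA libraries. In the TN experiment it had 424, 315 and 337 CPM with DMSO and 245, 191 and 170 CPM with TN. Every stressed library lay below every DMSO library of its experiment. The mean fell from 377 ± 41.8 to 184 ± 28.7 CPM (mean ± SD, n = 3) under OA, a log2 fold change of -1.03 (SE 0.23, adjusted p = 0.0467). Under TN the log2 fold change was -0.83 (SE 0.23, adjusted p = 0.0712), which missed the threshold without the block and passed it with the block (adjusted p = 0.00361). The transcript has a GC content of 38.5%, among the lowest of the members, and the GC correction took the OA value to -0.47 (adjusted p = 0.489) and, with the block as well, to -0.54 (adjusted p = 0.0621), so that the OA call was lost. The TN value with the GC correction was -0.39 (adjusted p = 0.619) and, with the block as well, -0.52 (adjusted p = 0.0115). Scaling to ACTB also ended the OA call (-0.57, adjusted p = 0.194). The OA call was lost as well when any library other than OA replicate 2 was left out (adjusted p from 0.0541 to 0.205), with log2 fold changes from -0.90 to -1.14 over all 6 omissions.

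ATP5MC1 (chromosome 17, 48892765 to 48895871) had 145, 236 and 144 CPM with DMSO and 77.4, 133 and 95.1 CPM with OA. In the TN experiment the levels were 193, 127 and 139 CPM with DMSO and 128, 80.3 and 97.5 CPM with TN. The OA libraries all lay below their DMSO libraries, whereas TN replicate 1 overlapped with the lowest DMSO library by less than 1 CPM. The log2 fold change was -0.78 (SE 0.31, adjusted p = 0.179) under OA and -0.59 (SE 0.26, adjusted p = 0.223) under TN. Each treated library was below its same-numbered control, and both comparisons passed with the block (adjusted p = 0.013 and 0.0163) and with the GC correction alone (adjusted p = 0.0126 and 0.0203). Without DMSO replicate 2 the OA value was -0.46, and without DMSO replicate 1 the TN value was -0.39. Scaling to ACTB gave -0.28 and -0.25, neither of them called.

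ATP5MC2 (chromosome 12, 53632726 to 53677408) had 124, 174 and 132 CPM with DMSO and 129, 189 and 166 CPM with OA. The TN experiment gave 157, 111 and 114 CPM with DMSO and 243, 132 and 115 CPM with TN. The groups overlapped under either stressor, and TN replicate 1 stood apart as the highest of the TN libraries. This was a log2 fold change of 0.17 (SE 0.25, adjusted p = 0.708) under OA, with a 95% interval from -0.40 to 0.75, and 0.36 (SE 0.33, adjusted p = 0.555) under TN, with an interval from -0.40 to 1.12. Without TN replicate 1 the TN value was at -0.0039, and scaling to total counts took the OA value to -0.054. The OA value was 0.030 without OA replicate 2 and 0.38 without DMSO replicate 2. Under OA the 95% interval of ATP5MC2 overlapped that of ATP5MC1 (from -1.49 to -0.071) and not that of ATP5MC3 (from -1.56 to -0.50). The difference between the genes was not tested.

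Outside the c ring, ATP5MF and ATP5PB had the lowest unadjusted p of the ATP synthase genes under OA after ATP5MC3, and were picked for description after their values were seen. ATP5MF encodes the f subunit of the membrane part (chromosome 7, 99448475 to 99466186). Its levels were 64.2, 101 and 71.1 CPM with DMSO and 28.6, 48.1 and 40.0 CPM with OA, without overlap. In the TN experiment they were 89.2, 58.9 and 62.3 CPM with DMSO and 61.8, 29.2 and 35.4 CPM with TN, where TN replicate 1 overlapped with the DMSO libraries. In the fit it was at a log2 fold change of -1.02 (SE 0.30, adjusted p = 0.09) under OA and -0.74 (SE 0.33, adjusted p = 0.225) under TN. With the block both passed (adjusted p = 0.00419 and 0.00957), and with the GC correction alone as well (-1.15, adjusted p = 0.00582, and -0.79, adjusted p = 0.0206). Neither was called with scaling to ACTB, at -0.52 under OA and -0.42 under TN. Of its transcript, 37.2% of the bases also lie in PTCD1 or the read-through gene ATP5MF-PTCD1 on the same strand, so its counts are uncertain.

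ATP5PB encodes the b subunit of the peripheral stalk that holds the catalytic head (chromosome 1, 111448864 to 111462773). It had 431, 470 and 383 CPM with DMSO and 257, 272 and 243 CPM with OA, and 493, 366 and 401 CPM with DMSO and 367, 307 and 332 CPM with TN. The OA libraries did not overlap with their controls, and the TN libraries did, by less than 1 CPM. The log2 fold change was -0.73 (SE 0.21, adjusted p = 0.0865) under OA and -0.33 (SE 0.20, adjusted p = 0.368) under TN. The OA value passed with the block (adjusted p = 0.0161). It was -0.28 and not called with scaling to ACTB, and the TN value was -0.19 without DMSO replicate 1. The transcript has a GC content of 39.4%, and after the GC correction the values were -0.24 under OA and 0.029 under TN, neither of them called.

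ATP5IF1 encodes the inhibitor that binds ATP synthase and prevents ATP hydrolysis when the proton gradient is lost (chromosome 1, 28236109 to 28246906). It had 80.8, 91.7 and 82.7 CPM with DMSO and 71.5, 91.2 and 78.4 CPM with OA. The levels in the TN experiment were 95.8, 76.6 and 87.7 CPM with DMSO and 123, 88.8 and 85.9 CPM with TN. The groups overlapped, and the log2 fold change was -0.082 (SE 0.22, adjusted p = 0.849) under OA and 0.19 (SE 0.22, adjusted p = 0.654) under TN, with 95% intervals from -0.59 to 0.43 and from -0.33 to 0.72.

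The other 10 ATP synthase genes were at or below -0.24 under OA and below 0 under TN. The catalytic head genes ATP5F1A and ATP5F1B, which encode its alpha and beta subunits, had means of 1470 ± 119 and 1555 ± 299 CPM in the DMSO libraries of OA. Their log2 fold changes under OA were -0.49 (SE 0.21, adjusted p = 0.217) and -0.24 (SE 0.26, adjusted p = 0.599). The central stalk genes ATP5F1C, ATP5F1D and ATP5F1E were at -0.47, -0.40 and -0.55, and the peripheral stalk genes ATP5PO, ATP5PD and ATP5PF were at -0.51, -0.27 and -0.56. The membrane genes ATP5ME and ATP5MG were at -0.31 and -0.33. Under TN these 10 genes ranged from -0.42 (ATP5PO) to -0.065 (ATP5MG). Neither comparison called any of them in the test without the block or a correction. Under other settings without the block, ATP5F1D was called lower under TN with the GC correction (adjusted p = 0.035), and under OA ATP5F1A was called with scaling to total counts and ATP5F1E and ATP5PF in 1 fit of all 12 libraries. With the GC correction ATP5MG was above 0 under both stressors (0.23 and 0.27), and so was ATP5F1E (0.044 and 0.12). With the GC correction and the block together, 5 of the 10 genes were called lower under TN, where 38.3% of all genes were called in either direction. These were ATP5F1A (-0.21, adjusted p = 0.0345), ATP5F1B (-0.31, adjusted p = 0.00659), ATP5F1D (-0.46, adjusted p = 0.0154), ATP5PO (-0.37, adjusted p = 0.0313) and ATP5ME (-0.32, adjusted p = 0.0268). ATP5ME was called lower under OA as well (-0.49, adjusted p = 0.0418), where 25.7% of all genes were called in either direction. Of the ATP5PO transcript, 63.8% of the bases also lie in another gene on the same strand, and of ATP5MG 24.4%. Of ATP5ME 39.6% and of ATP5F1E 32.7% lie opposite another gene, which limits these counts too.

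**Figure D3:**
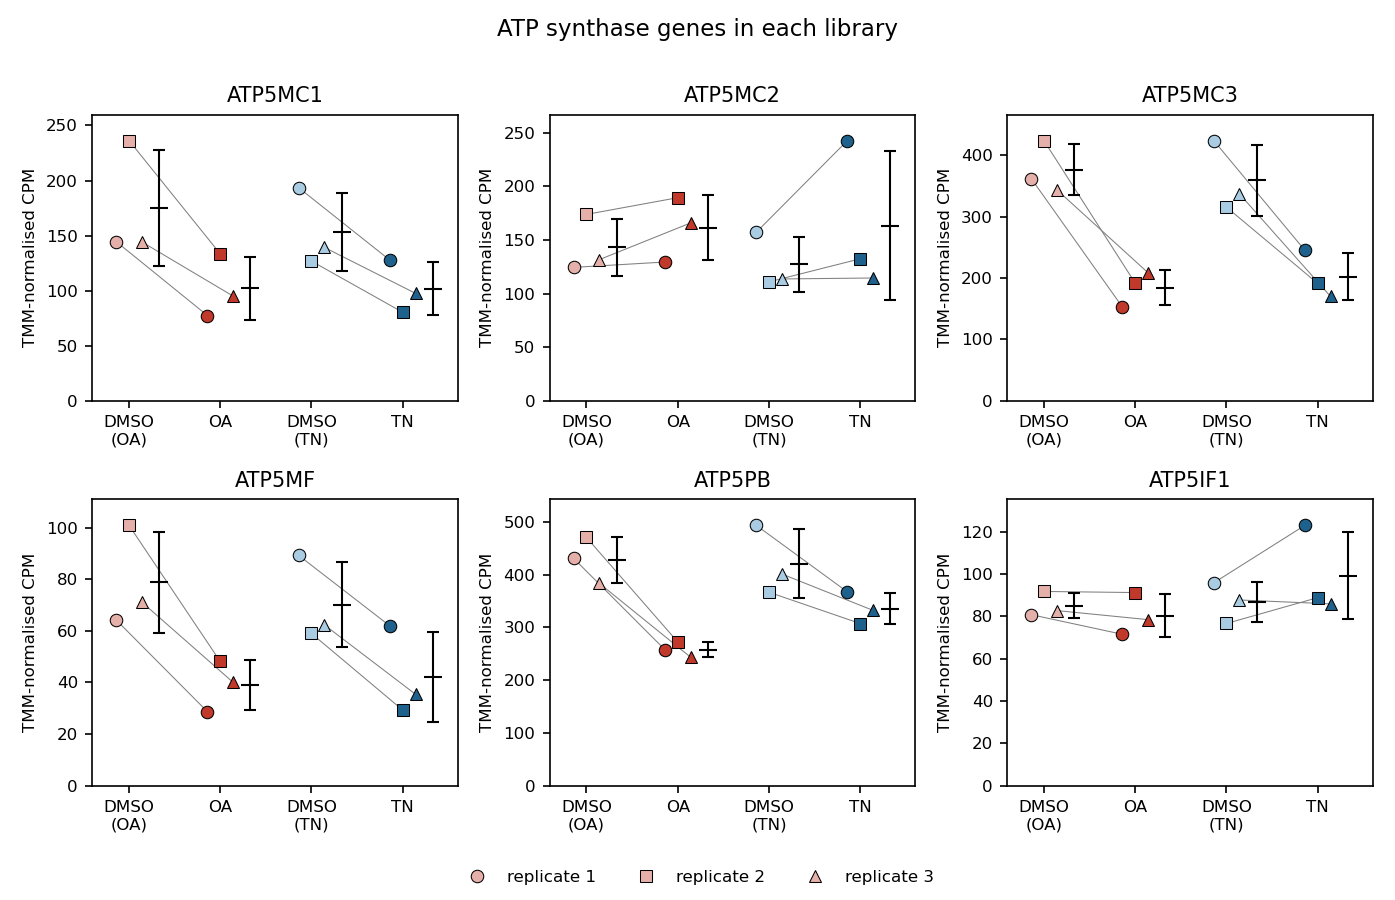
TMM-normalised CPM (y axes, from 0) of 6 ATP synthase genes in each library (x axes, 4 groups of 3). Marker shapes give the replicate number, grey lines join same-numbered libraries, and black bars are the mean ± SD. ATP5MC1, ATP5MC3, ATP5MF and ATP5PB are lower in every treated library than in the same-numbered control, while ATP5MC2 is higher in every one and ATP5IF1 overlaps.

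In complex II, SDHD and SDHA had the lowest values. SDHA encodes the flavoprotein that oxidizes succinate (chromosome 5, 218303 to 257082). Its levels were 18.6, 21.3 and 17.4 CPM with DMSO and 8.19, 10.7 and 14.5 CPM with OA, without overlap, and 17.9, 15.8 and 14.2 CPM with DMSO and 15.1, 8.21 and 9.27 CPM with TN, with TN replicate 1 inside the DMSO range. This was a log2 fold change of -0.78 (SE 0.30, adjusted p = 0.164) under OA and -0.56 (SE 0.29, adjusted p = 0.29) under TN, and the OA value passed with the block (adjusted p = 0.0347). With the GC correction alone both passed (-0.91, adjusted p = 0.0318, and -0.615, adjusted p = 0.0336). With scaling to ACTB they were -0.32 and -0.26, neither of them called. SDHA counts are uncertain. Of its transcript, 69.4% of the bases also lie in another gene on the same strand, and rows named as its pseudogenes held 103% as many counts as SDHA itself over the 12 libraries. With those counts added, the values were -0.55 under OA and -0.45 under TN, neither of them called.

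SDHD encodes a membrane anchor of complex II (chromosome 11, 112086824 to 112120016). It had 99.6, 61.4 and 74.7 CPM with DMSO and 66.4, 21.1 and 43.2 CPM with OA, and 87.1, 97.0 and 109 CPM with DMSO and 33.2, 75.0 and 78.1 CPM with TN. OA replicate 2 and TN replicate 1 were the lowest libraries of their groups, the OA groups overlapped, and the TN groups did not. In the fit it was at a log2 fold change of -0.85 (SE 0.41, adjusted p = 0.259) under OA and -0.65 (SE 0.34, adjusted p = 0.283) under TN. With the block it was -0.96 (adjusted p = 0.0122) and -0.74 (adjusted p = 0.0373). The GC correction gave -0.53 (adjusted p = 0.0676) under OA and -0.47 (adjusted p = 0.0475) under TN, and with the block as well -0.54 (adjusted p = 0.0525) and -0.46 (adjusted p = 0.0186), so that the OA call of the block was lost. Of its transcript, 23.8% of the bases also lie in another gene on the same strand. Without TN replicate 1 the TN value was -0.30. The OA value was -0.50 without OA replicate 2 and -1.30 without OA replicate 1. With scaling to ACTB the values were -0.45 under OA and -0.28 under TN, neither of them called. The iron-sulfur subunit gene SDHB was at -0.37 (SE 0.22, adjusted p = 0.347) under OA and -0.28 (SE 0.20, adjusted p = 0.444) under TN, and the other anchor gene SDHC was at 0.021 and -0.019.

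Complex III genes had small negative values. The lowest was UQCR10, which encodes a small subunit next to the cytochrome c1 protein (chromosome 22, 29767369 to 29770413). It had 120, 189 and 126 CPM with DMSO and 72.8, 105 and 90.7 CPM with OA, without overlap. In the TN experiment it had 171, 121 and 126 CPM with DMSO and 134, 97.1 and 93.9 CPM with TN, with TN replicate 1 inside the DMSO range. The log2 fold change was -0.69 (SE 0.27, adjusted p = 0.179) under OA and -0.37 (SE 0.24, adjusted p = 0.408) under TN, and OA passed with the block (adjusted p = 0.0241). Without DMSO replicate 2 the OA value was -0.41 and without DMSO replicate 1 the TN value was -0.19, and scaling to ACTB gave -0.20 and -0.028. Of its transcript, 19.7% of the bases lie opposite another gene, and the strand setting of the counts is not stated. UQCRC2, a core subunit with the lowest p of the complex under TN (chromosome 16, 21953288 to 21983660), had 265, 281 and 235 CPM with DMSO and 215, 266 and 210 CPM with OA, and 316, 276 and 274 CPM with DMSO and 242, 212 and 226 CPM with TN. The TN libraries lay below their controls and the OA libraries overlapped, at log2 fold changes of -0.35 (SE 0.18, adjusted p = 0.283) and -0.18 (SE 0.22, adjusted p = 0.65). The OA value was -0.30 without OA replicate 2 and -0.077 without DMSO replicate 2. The TN value was -0.010 with scaling to ACTB and -0.15 with the GC correction. The other 7 genes, among them UQCRFS1 (the Rieske iron-sulfur protein) at -0.51 and CYC1 (cytochrome c1) at -0.37, ranged from -0.51 to -0.11 under OA and from -0.34 to -0.041 under TN, with no call in the test without a correction. CYC1 was called lower under TN with the GC correction (-0.50, adjusted p = 0.0365) and, with the block as well, under both stressors (adjusted p = 0.0304 for OA and 0.00147 for TN). The correction with the block also called UQCR11 lower under OA (-0.62, adjusted p = 0.0445), and UQCRC1 (-0.28, adjusted p = 0.0355) and UQCR10 (-0.31, adjusted p = 0.0292) lower under TN. Of the UQCR11 transcript, 18.1% of the bases also lie in another gene on the same strand. With the GC correction alone UQCRB was above 0 under both stressors (0.23 and 0.21), UQCRC2 under OA (0.093) and UQCRH under TN (0.057).

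Cytochrome c (CYCS, chromosome 7, 25118656 to 25125260) carries electrons from complex III to complex IV. Its levels were 365, 210 and 266 CPM with DMSO and 219, 120 and 127 CPM with OA, and 287, 405 and 445 CPM with DMSO and 91.7, 350 and 342 CPM with TN. The groups overlapped in either experiment, but each treated library was below its same-numbered control, and TN replicate 1 lay far below the other TN libraries. This was a log2 fold change of -0.85 (SE 0.33, adjusted p = 0.166) under OA and -0.53 (SE 0.48, adjusted p = 0.547) under TN. With the block OA passed (-0.87, adjusted p = 0.00829) and TN did not (-0.73, adjusted p = 0.0745). The GC correction gave -0.51 (adjusted p = 0.079) and -0.41 (adjusted p = 0.34), and with the block as well -0.52 (adjusted p = 0.0435) and -0.49 (adjusted p = 0.0592). Without TN replicate 1 the TN value was -0.077, and without TN replicate 2 it was -0.80. Omitting DMSO replicate 1 took the OA value to -0.56. With scaling to ACTB the values were -0.46 under OA and -0.16 under TN, neither of them called.

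In complex IV, COX7A2L rose under TN. It encodes a protein related to COX7A2 that joins complexes III and IV into supercomplexes (chromosome 2, 42333546 to 42425088). It had 124, 144 and 131 CPM with DMSO and 186, 313 and 195 CPM with OA, and 154, 130 and 130 CPM with DMSO and 315, 241 and 253 CPM with TN. Every stressed library lay above every DMSO library, and OA replicate 2 and TN replicate 1 were the highest. Under TN the mean rose from 138 ± 14.3 to 269 ± 39.9 CPM (mean ± SD, n = 3), a log2 fold change of 0.97 (SE 0.20, adjusted p = 0.0335). Under OA it was 0.80 (SE 0.27, adjusted p = 0.124), which missed the threshold without the block and passed with it (adjusted p = 0.0195) and with scaling to ACTB (1.26, adjusted p = 0.0349). Scaling to total counts gave 0.54 (adjusted p = 0.101) under OA, and without OA replicate 2 the OA value was 0.51 (adjusted p = 0.157). The GC correction raised both estimates, to 1.44 under OA (adjusted p = 0.0905) and 1.40 under TN (adjusted p = 0.0613), so that the TN call was lost. With the GC correction and the block both passed, at 1.24 (adjusted p = 0.00522) and 1.27 (adjusted p = 0.000114). The TN call was also lost when any library other than TN replicate 1 was left out (adjusted p from 0.0545 to 0.170), with log2 fold changes from 0.88 to 1.06 over all 6 omissions.

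None of the other 10 complex IV genes was called without the block. COX7B and COX6C had the lowest values under OA, at -0.60 (SE 0.25, adjusted p = 0.199) and -0.58 (SE 0.23, adjusted p = 0.183). Both passed under OA with the block (adjusted p = 0.0363 and 0.0377), and after the GC correction they were at -0.22 and -0.17, not called. COX6B1, COX7C, COX8A and COX5A were between -0.35 and -0.20. The genes COX4I1, COX5B, COX6A1 and COX7A2 were above 0 under both stressors, from 0.071 to 0.27 under OA and from 0.13 to 0.28 under TN, although COX4I1 was at -0.091 under OA with the GC correction. The GC correction with the block called COX6B1 lower under OA (-0.48, adjusted p = 0.045) and COX7A2 higher under TN (0.32, adjusted p = 0.0186). Of the COX6A1 transcript 32.6% and of COX8A 35.4% of the bases also lie in another gene on the same strand. Isoforms known from other tissues were near or at 0. COX4I2, COX6A2 and COX7A1 had no count in any of the 12 libraries, and COX6B2, COX7B2 and COX8C had at most 10 counts in a library.

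**Figure D4:**
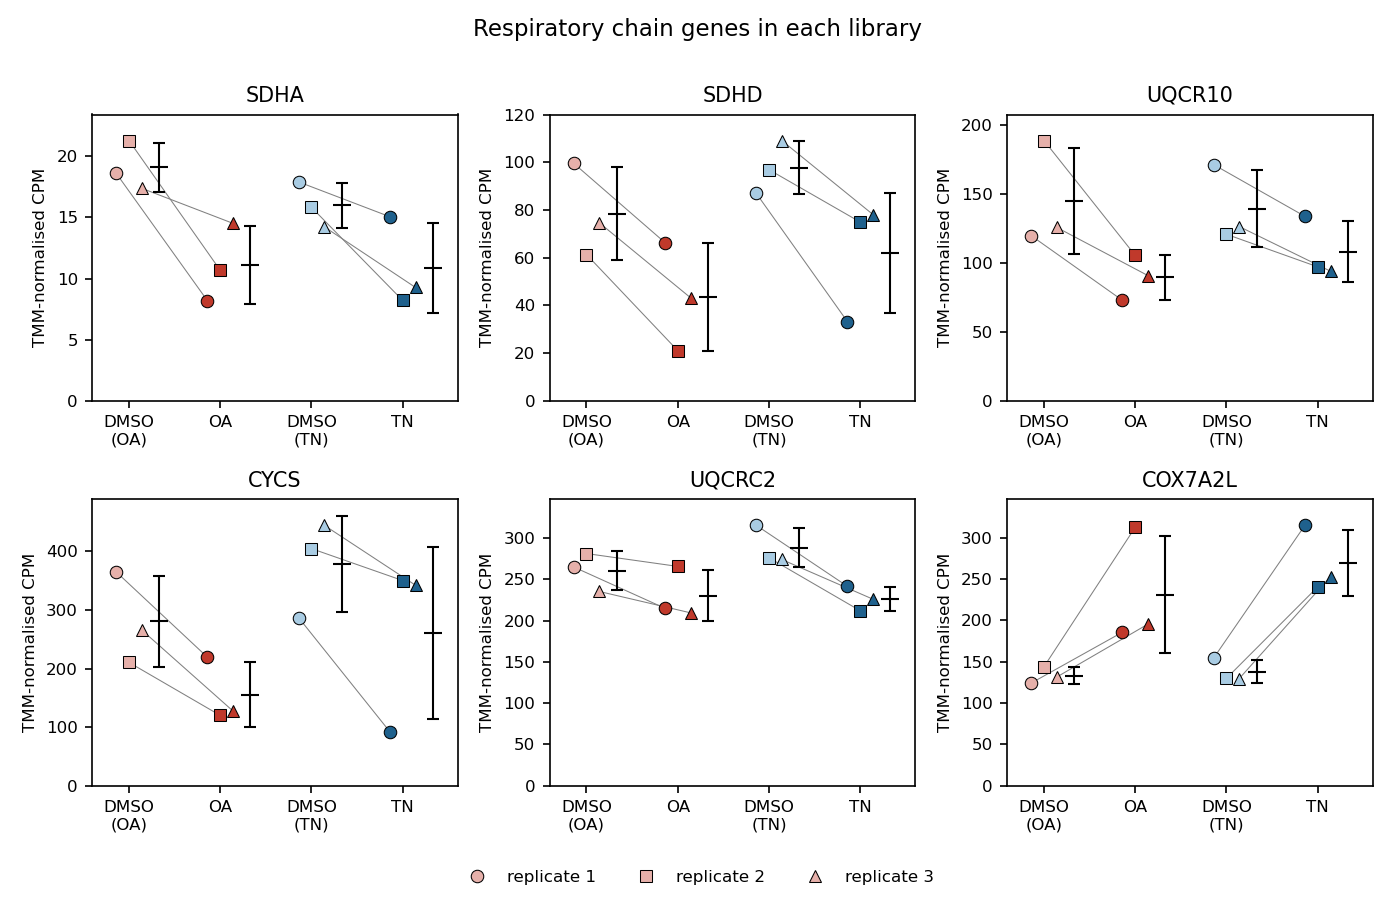
TMM-normalised CPM (y axes, from 0) of 6 respiratory chain genes in each library (x axes, 4 groups of 3). Marker shapes give the replicate number, grey lines join same-numbered libraries, and black bars are the mean ± SD. SDHD and CYCS are lowest in OA replicate 2 and TN replicate 1, and COX7A2L is higher in all 6 treated libraries than in any DMSO library.

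Subunits of the same complexes that mitochondrial DNA encodes were compared by the same test, and none was called. MT-CO1 and MT-CO3 of complex IV had positive values of 0.88 (adjusted p = 0.0865) and 0.88 (adjusted p = 0.0654) under OA, and of 0.65 (adjusted p = 0.143) and 0.69 (adjusted p = 0.203) under TN. MT-CO2 was at 0.34 and 0.21, MT-CYB of complex III at 0.56 and -0.21, and MT-ATP6 of ATP synthase at -0.26 and -0.20. Group means were from 9.83 to 15.3 CPM for MT-ATP6 and from 23 to 37 CPM for MT-CYB. Those of MT-CO1 and MT-CO3 were from 478.5 to 922 CPM. Pseudogene rows were not checked for these genes. MT-ATP8 had at most 29 counts in a library and did not pass the filter against either set of controls. Of the 7 tested nuclear genes for further subunits or subunit-like proteins, such as ATP5MK at -0.31 under OA and -0.35 under TN and HIGD2A at 0.42 and 0.62, none was called.

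OA and TN were set side by side through their separate controls. Across the 41 members the log2 fold changes had a Pearson correlation of 0.939 and a Spearman correlation of 0.869, beside 0.804 and 0.783 across the 14071 genes tested in both. These are correlations across genes, which are not independent and which share libraries, depth and GC content within each experiment, so they carry no test. The sign was the same in 38 members, negative in 32 and positive in 6. The test of the difference between the stressors (OA against its DMSO libraries minus TN against its own, over all 12 libraries) called no member by the same test in edgeR, and no gene of 15429 (0%). At an unadjusted p under 0.05 it gave 348 genes, 1.11% of all genes higher and 1.15% lower and none of them a member, and DESeq2 called 2 genes, neither a member. The estimates of this difference were below 0 in 40 of 41 members (97.6%, against 56% of all genes), with a median of -0.24 beside -0.058 over all genes. In the separate fits, 37 members had a lower log2 fold change under OA than under TN. For ATP5MC3 the difference was -0.27 (95% interval from -0.89 to 0.36), for COX7A2L -0.25 (from -0.88 to 0.39) and for ATP5PB, the member with the lowest p, -0.47 (from -1.04 to 0.093). Leaving out 1 library moved the difference between -0.44 and -0.035 for ATP5MC3 and between -0.47 and -0.043 for COX7A2L, with the value nearest 0 without TN replicate 1 in both, and the GC correction with the block gave -0.038 and -0.041. With scaling to ACTB the difference was -0.071 for ATP5MC3 and -0.040 for COX7A2L, where the median of all genes was 0.13. A difference between OA, whose target is ATP synthase, and TN was therefore not detectable in these genes.

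**Figure D5:**
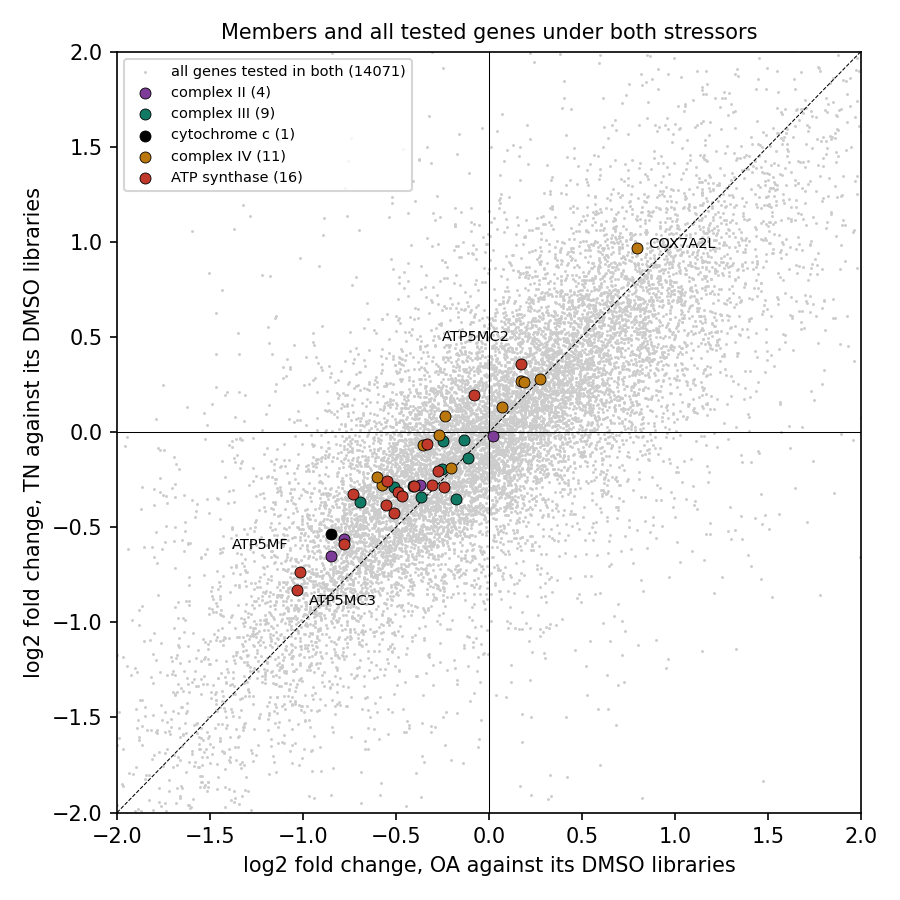
Log2 fold change under OA (x axis) against that under TN (y axis) for the 41 members, coloured by complex, and for all 14071 genes tested in both experiments (grey); 585 grey points lie outside the axes. The dashed line marks equal values. Members lie mostly at the lower left and above the line, with COX7A2L at the upper right.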

How the data were processed

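RNA was sequenced with a stranded total RNA kit, per the labels. STAR was used by the authors for alignment to hg38 and for counting per gene with Gencode version 32, and the raw counts were deposited without normalization. Which strand column of STAR was taken is not given in the sources used here. Deposited tables of DESeq2 fold changes and p-values were not used.

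Genes passing filterByExpr were tested with edgeR 4.0.16 (glmQLFit and glmQLFTest, two-sided, TMM, R 4.3.3), each stressor against its own 3 DMSO libraries and the difference over all 12 libraries. P-values were adjusted by the Benjamini-Hochberg method over all tested genes, with a threshold of 0.05. Levels are TMM-normalised CPM, scaled within each experiment. The scripts were tested on simulated data. Alternatives were DESeq2 1.42.0, other scalings and filters, the replicate block, GC and length offsets, 1 fit of all 12 libraries, and leaving out each library.

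The members and the gene lists were chosen with earlier results of these data known. Values in every library are given for members called in any comparison, for the member with the lowest p of each complex in OA and in TN, for the c ring genes and for ATP5IF1; ATP5MF and ATP5PB were added after their values were seen. Positions, GC content and overlaps are from GENCODE 44 on hg38, and promoters are from RefSeq GRCh38.p14.

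Deviations from the group mean correlated between same-numbered libraries at 0.706, 0.607 and 0.114 (OA) and 0.694, 0.475 and 0.505 (TN). All were over 0.1, so replicate numbers were treated as pairs, although the labels do not say what a number marks. Libraries of different number correlated as well, namely replicates 2 and 3 of TN, at 0.440 and 0.508. In OA, DMSO replicate 3 correlated with OA replicate 1 at 0.17, above its 0.114 with OA replicate 3. No 2 libraries of the same group agreed within sampling noise. The precision is limited by the 3 replicates of each group.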

Additional observations from a re-analysis of the deposited data

How the results depend on the processing

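Scaling moved all genes together. Scaling to total counts took the median of all genes to -0.23 under OA and -0.18 under TN and the member median to -0.59 and -0.42, and scaling to ACTB took all genes to 0.42 and 0.30 and the members to 0.13 and 0.064, so the members stayed below all genes by similar amounts while their sign turned. The share of counts had a log2 ratio of -0.44 under OA with RN7SL1 left out of the total, and of 0.16 (OA) and 0.14 (TN) with ACTB as the denominator. Under OA, DESeq2 called 1927 genes (13.1% of those tested) and 3 members (7.32% of the 41), scaling to total counts 5.09% of genes and 5 members (12.2%), no filter 1572 genes (5.52%) and 2 members (4.88%), the length offset 1001 genes (6.82%) and 3 members (7.32%), and 1 fit of all 12 libraries 1681 genes (10.9%) and 6 members (14.6%). Scaling to ACTB called 1425 genes (9.71%) and 1 member, which was COX7A2L as higher and no longer ATP5MC3. The replicate block called 3914 genes (26.7%) and 11 members (26.8%), the GC offset 2602 (17.7%) and 4 (9.76%), the GC offset with the block 3780 (25.7%) and 10 (24.4%), and the length offset with the block 4011 (27.3%) and 17 (41.5%). Under TN, DESeq2 called 2162 genes (15%) and 2 members (4.88%), no filter 1648 (5.85%) and 2, the block 3915 (27.1%) and 5 (12.2%), the GC offset 3477 (24.1%) and 6 (14.6%), the GC offset with the block 5532 (38.3%) and 15 (36.6%), and the length offset with the block 3897 (27%) and 11 (26.8%). The length offset alone called 4 members under TN (9.76%, against 9.99% of genes), and scaling to total counts and the fit of 12 libraries called 2 each (4.88%, against 9.73% and 8.73% of genes). For OA minus TN, DESeq2 and the GC offset called 2 genes each, no filter 25 and the GC offset with the block 5, and no alternative called a member.

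Leaving out 1 library gave from 3 (without DMSO replicate 2 or 3 of OA) to 1179 genes under OA, with 0 to 1 member. Under TN it gave from 151 to 2361 genes, with 0 to 4 members. The highest gene counts came without OA replicate 1, where 0 members were called, and without TN replicate 1, where 4 were. The 1 member under OA, ATP5MC3, was called without OA replicate 2. The member median ranged from -0.52 to -0.16 under OA and from -0.35 to -0.13 under TN, OA minus TN called from 0 to 4 genes and no member, and the log2 ratio of the share, an alternative added after the data were seen, ranged from -0.57 to -0.48 and from -0.41 to -0.27. Among the members described in full, the sign turned for ATP5MC2 under OA with scaling to total counts (-0.054) and under TN without TN replicate 1 (-0.0039, in a range up to 0.53 without DMSO replicate 1), for UQCRC2 under OA with ACTB (0.27), the GC offset (0.093) and the GC offset with the block (0.052), and for ATP5IF1 under OA with ACTB (0.38) and without DMSO replicate 2 (0.019, in a range down to -0.19 without OA replicate 2). Under TN it turned for ATP5PB with ACTB (0.022) and the GC offset (0.029) and for ATP5IF1 with the length offset (-0.032, and -0.035 with the block), and for OA minus TN it turned for COX7A2L with the GC offset (0.0155). Beyond their construction, the cause of these changes was not tested. Adding the counts of pseudogene rows changed neither the member counts nor the direction of a median.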

Other observations

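Of 39 assembly factors tested for complexes II to V under OA none was called (4.48% of all genes were), and of 38 under TN 1 was called (6.99% of all genes were), the complex IV assembly factor COA7 (62.7 ± 5.22 CPM with DMSO and 33.7 ± 2.80 CPM with TN, mean ± SD, n = 3; log2 fold change -0.90, SE 0.19, adjusted p = 0.0357). TMEM70, which is needed to build the c ring of ATP synthase, was at -1.09 (SE 0.36, adjusted p = 0.122) under OA and -0.83 (SE 0.37, adjusted p = 0.218) under TN. Of 9 tested regulators of nuclear respiratory genes, PPARGC1B, a transcriptional coactivator, fell under TN (log2 fold change -1.43, SE 0.28, adjusted p = 0.0274), and none was called under OA, where 6.99% and 4.48% of all genes were called under TN and OA. The factors whose letters were searched in the promoters were at -0.37 (NRF1), -0.47 (GABPA) and -0.65 (YY1) under OA and at -0.26, -0.21 and -0.54 under TN, none of them called.

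The 37 tested nuclear genes for complex I subunits went both ways, with most of them below 0. Of these, 29 were below 0 under OA (51.2% of all genes were) and 30 under TN (51.9% of all genes), with medians of -0.30 and -0.27, and none was called, where 4.48% and 6.99% of all genes were. NDUFB6, an accessory subunit of the membrane arm, had the lowest value under OA, at -1.11 (SE 0.28, adjusted p = 0.0657), and was at -0.81 (SE 0.21, adjusted p = 0.059) under TN. The complex I genes were chosen as the nearest comparison, and the difference between the lists was not tested.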
